A study of Mus musculus with 4 samples.

Results

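The VEGF ligands and receptors were described here as 10 genes, taken by their symbols from the 32285 features of the matrices: the ligands *Vegfa*, *Vegfb*, *Vegfc* and *Pgf*, the receptor tyrosine kinases *Kdr*, *Flt1* and *Flt4*, the co-receptors *Nrp1* and *Nrp2*, and the VEGF-responsive endothelial gene *Esm1*. Each symbol matched 1 feature. They were taken from known biology of the pathway, with earlier results of these data known.

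Single-cell RNA sequencing (10x Chromium 3′, chemistry v3.1) had been done on mouse ventricles at E14.5, with 2 control libraries (Tie2Cre; Ets1 fl/+) and 2 *Ets1* eKO libraries (Tie2Cre; Ets1 fl/fl), each made from 3 pooled ventricles. All mice were on a C57BL/6 background, carried Tie2Cre, and received no treatment. Controls therefore lack 1 *Ets1* allele in the Tie2 lineage, which holds endothelial, endocardial and blood cells and the cushion mesenchyme that arises from endocardium. Embryos were of both sexes and were not genotyped for sex, and all 4 libraries were labelled as batch 1. Control 1 held 12641 barcodes with 124140739 UMIs, and control 2 held 7949 barcodes with 76931208 UMIs. In *Ets1* eKO, library 1 held 10010 barcodes with 95131419 UMIs and library 2 held 14951 barcodes with 102872196 UMIs. The median depth was 8630 UMIs per barcode in control 1, 8369 in control 2, 8222 in eKO 1 and 5632 in eKO 2, so that eKO 2 was the shallowest. Libraries shared few barcodes with each other: 98, 78, 85 and 121 barcodes of control 1, control 2, eKO 1 and eKO 2 were also found in another library. *Xist* stood at 0.0886 CPM in control 1, 299 in control 2, 251 in eKO 1 and 479 in eKO 2 (CPM, the gene's UMIs scaled to the same total in every sum). The Y-linked *Ddx3y* stood at 55.4, 27.5, 23.9 and 1.53 CPM in the same order, so that the sex of the pooled cells differed between libraries of each genotype. The part of sex in the results was not tested.

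VEGF-A is the main ligand for growth of new vessels and signals in endothelial cells through the tyrosine kinase encoded by *Kdr*. PlGF (*Pgf*) and VEGF-B bind the *Flt1* product, which holds VEGF-A with high affinity but signals weakly, and VEGF-C signals through the *Flt4* product and, once processed, also through *Kdr*. Neuropilins are co-receptors for these ligands, and coronary vessels of the embryonic heart grow into myocardium and below epicardium that secrete VEGF-A and VEGF-C.

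Cells were placed in classes by the summed UMIs of marker genes, and no VEGF gene was among the markers. The cvEC-like class (coronary vascular endothelial cells; *Fabp4*, *Cd36*, *Rgcc*, *Aplnr*) held 384 and 206 cells in control 1 and control 2, and 313 and 540 in eKO 1 and eKO 2. The mEndo-like class (mural endocardium; *Npr3*, *Cgnl1*, *Tmem108*, *Adgrg6*) held 1003, 716, 879 and 1606 cells of control 1, control 2, eKO 1 and eKO 2. The vEndo-like class (valvular endocardium; *Nfatc1*, *Prox1*, *Hey2*, *Wnt4*, *Cldn11*, *Wnt9b*) was small, with 87, 79, 97 and 124 cells. Beside these stood 19444 cardiomyocyte-like, 878 epicardial-like, 7756 fibroblast-like and 776 immune-like cells. Within the cvEC-like class, 224 arterial-like and 146 venous-like cells were separated from 1073 others, and among cardiomyocytes 4401 compact-like and 3053 trabecular-like cells were separated. Fibroblast-like cells may include cushion mesenchyme. In epicardial-like cells the 8 fibroblast markers summed to 9756 and 8109 CPM (controls) against 8038 and 7203 CPM (*Ets1* eKO). That exceeded the class's own 8 markers, with 3104 and 3176 CPM (controls) against 2661 and 2833 CPM (*Ets1* eKO). In fibroblast-like cells the fibroblast markers summed to 6912 and 6428 CPM (controls) against 7287 and 6314 CPM (*Ets1* eKO). Of the cells past the quality filter and with at least 1000 UMIs, 8.43% of control 1, 8.03% of control 2, 8.996% of eKO 1 and 12.3% of eKO 2 fell in no class. Of the endothelial-like cells, 15.9% of control 1, 18.8% of control 2, 19.1% of eKO 1 and 21.5% of eKO 2 (1437 of 7471 in all) fell in none of the 3 endothelial classes, with both *Ets1* eKO libraries above both controls. What these cells would add to the comparisons was not tested. Cells within 25% above the threshold of their class made up 2.77% of cvEC-like, 6.64% of mEndo-like, 18.3% of vEndo-like, 16.1% of arterial-like and 32.2% of venous-like cells.

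Each endothelial class held the 9 endothelial markers, with 4156 and 4028 CPM (controls) against 4095 and 4213 CPM (*Ets1* eKO) in cvEC-like cells for their sum. In vEndo-like cells that sum was lower, with 2261 and 2310.2 CPM (controls) against 2449.9 and 2576 CPM (*Ets1* eKO). The 10 cardiomyocyte markers, all detected in each endothelial class and led by *Tpm1*, summed to 857 and 580.1 CPM (controls) against 827 and 1042 CPM (*Ets1* eKO) in cvEC-like cells. In mEndo-like cells they summed to 1204 and 663 CPM (controls) against 1139 and 1514 CPM (*Ets1* eKO), and in vEndo-like cells to 1039.7 and 797 CPM (controls) against 1051 and 1471 CPM (*Ets1* eKO). In each of these classes the sum was lowest in control 2 and highest in eKO 2, and its part in the results was not tested. Among mEndo-like cells the sum of the class's own 4 markers was 3777 and 3746 CPM (controls) against 3185 and 2926 CPM (*Ets1* eKO), and that of the 8 fibroblast markers, led by *Col3a1*, was 615 and 594 CPM (controls) against 905 and 858 CPM (*Ets1* eKO). In cvEC-like cells the sum of that class's own 4 markers was 7681 and 6406 CPM (controls) against 8394 and 9440.1 CPM (*Ets1* eKO), and that of the 3 markers of compact cardiomyocytes, led by *Tnnt1*, was 45.3 and 38.9 CPM (controls) against 104 and 83.1 CPM (*Ets1* eKO). These 4 sets of values separated the genotypes. So did the epicardial sum (higher in *Ets1* eKO) and the fibroblast, immune, vEndo and arterial sums (lower) in cvEC-like cells. In mEndo-like cells the mural, cvEC, compact and lymphatic sums were higher in both *Ets1* eKO libraries and the vEndo and venous sums lower. In vEndo-like cells the endothelial, cardiomyocyte, epicardial, immune, mural, mEndo, venous, compact and lymphatic sums were higher in both *Ets1* eKO libraries and the arterial sum lower, with venous sums of 194 and 225 CPM (controls) against 295 and 267 CPM (*Ets1* eKO). The part of these sums in the results was not tested.

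Ets factors bind a core of GGAA, and promoters are shown for *Vegfa* and *Kdr*, a ligand and a receptor that changed in *Ets1* eKO. The windows are the 250 bases before the start of the gene (RefSeq, build GRCm38.p6), read 5′ to 3′ on the gene's strand, with GGAA or its reverse complement TTCC in capitals. The *Vegfa* window is chr17:46032378-46032627 (minus strand) and the *Kdr* window is chr5:75978456-75978705 (minus strand), of which 3 bases lie inside the annotated gene.
Vegfa: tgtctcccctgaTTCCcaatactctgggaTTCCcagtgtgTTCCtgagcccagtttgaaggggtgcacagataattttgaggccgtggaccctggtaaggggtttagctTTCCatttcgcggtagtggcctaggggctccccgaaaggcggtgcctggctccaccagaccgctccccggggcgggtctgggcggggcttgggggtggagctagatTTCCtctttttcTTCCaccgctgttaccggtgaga
Kdr: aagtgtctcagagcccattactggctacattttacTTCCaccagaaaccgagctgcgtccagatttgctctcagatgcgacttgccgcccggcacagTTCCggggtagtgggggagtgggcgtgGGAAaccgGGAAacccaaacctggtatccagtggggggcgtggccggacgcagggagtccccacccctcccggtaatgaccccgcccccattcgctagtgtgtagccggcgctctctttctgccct
The *Vegfa* window held 6 matches and the *Kdr* window 4. A match was found on either strand in 93.4% of 32851 windows of that length, with a median of 3 matches, and in the first entries of 9 of the 10 genes, *Pgf* being the one without. ACGTG, the core of hypoxia response elements (searched with its reverse complement CACGT), was in 16.6% of all windows and in 0 of the 10 first entries, while the second entry of *Vegfa* held 1 match. These matches describe letters in a window and not binding. The windows of *Pgf* and *Flt4* lie inside annotated gene sequence and are not printed.

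*Ets1*, the deleted gene, was lower in *Ets1* eKO in each endothelial class. In cvEC-like cells it stood at 366 and 326 CPM in control 1 and control 2 and 175 and 126 CPM in eKO 1 and eKO 2, a log2 difference of -1.12 (SE 0.17; adjusted p 0.0175, edgeR's quasi-likelihood test on UMIs summed per library, Benjamini-Hochberg over all genes tested, threshold 0.05, as for every adjusted p given for a comparison here unless DESeq2 is named). The mEndo-like values were 277 and 257 CPM (controls) against 122 and 94.7 CPM (*Ets1* eKO), with a log2 difference of -1.25 (SE 0.14, adjusted p 7.20e-04). In vEndo-like cells they were 241 and 241 CPM (controls) against 89.0 and 93.9 CPM (*Ets1* eKO), with -1.38 on the log2 scale (SE 0.18, adjusted p 0.00378), and with doubled class thresholds this difference missed the threshold (-1.37, adjusted p 0.0557, in a range from 3.26e-08 over the alternatives). Both controls lay above both *Ets1* eKO libraries in all 3 classes. So they did in fibroblast-like cells, with 99.8 and 84.8 CPM (controls) against 62.7 and 59.5 CPM (*Ets1* eKO), where the log2 difference of -0.50 (SE 0.13) missed the threshold (adjusted p 0.269) and passed with no filter on low counts (-0.51, adjusted p 0.0128, in a range up to 0.460 over the alternatives). Whether cushion mesenchyme among these cells carries the deletion was not tested. Cardiomyocyte-like cells went the other way, with 7.79 and 8.06 CPM (controls) against 9.50 and 10.4 CPM (*Ets1* eKO). Their log2 difference was 0.44 (SE 0.13, adjusted p 0.446), and 0.53 without eKO 1. So did epicardial-like cells, with 14.5 and 17.2 CPM (controls) against 17.6 and 18.1 CPM (*Ets1* eKO) (0.25, adjusted p 0.890). Immune-like cells held 22.0 and 17.6 CPM (controls) against 13.7 and 13.6 CPM (*Ets1* eKO). Which exons the floxed allele removes is not given in the sources used here, so the 3′ tags that remain may not measure the deletion. The p-values measure spread between these 4 libraries, and whether the pools came from separate litters is not stated. Where a comparison of genotypes leaves out 1 library below, 1 library remains in its group, which is assumed to vary like the other group, and the spread comes from that other group alone. Adjusted p can then be far smaller than with all 4 libraries, so a pass there adds no weight to a call.

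The cells that held the UMIs differed between the genes. As a mean over the 4 libraries, cardiomyocyte-like cells held 80.9% of the *Vegfa* UMIs found in these 7 classes, 91.8% of *Vegfb* and 52.8% of *Vegfc*. Fibroblast-like cells held 25.1% of *Vegfc* and epicardial-like cells 3.48%. For *Pgf* the split differed between genotypes: cvEC-like cells held 19.4% and 16.4% of the UMIs in the controls, and 38.2% and 41.6% in eKO 1 and eKO 2. Fibroblast-like cells held 36.3%, 43.1%, 28.5% and 19.6% in the same order, and cardiomyocyte-like cells 31.4%, 25.2%, 18.9% and 31.1%. The cvEC-like share was the smallest of the 3 in each control and the largest in each *Ets1* eKO library. The receptors were endothelial: cvEC-like and mEndo-like cells held 48.9% and 44.2% of *Kdr*, 35.3% and 50.04% of *Flt1*, and 48.7% and 29.0% of *Flt4*. *Nrp2* had 50.6% of its UMIs in cvEC-like cells, whereas 67.3% of the *Nrp1* UMIs lay in cardiomyocyte-like cells. For *Esm1* the cvEC-like share was 94.9%. These shares depend on how many cells of each class were captured, and the CPM of a class given in the rest of the text do not.

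**Figure D1:**
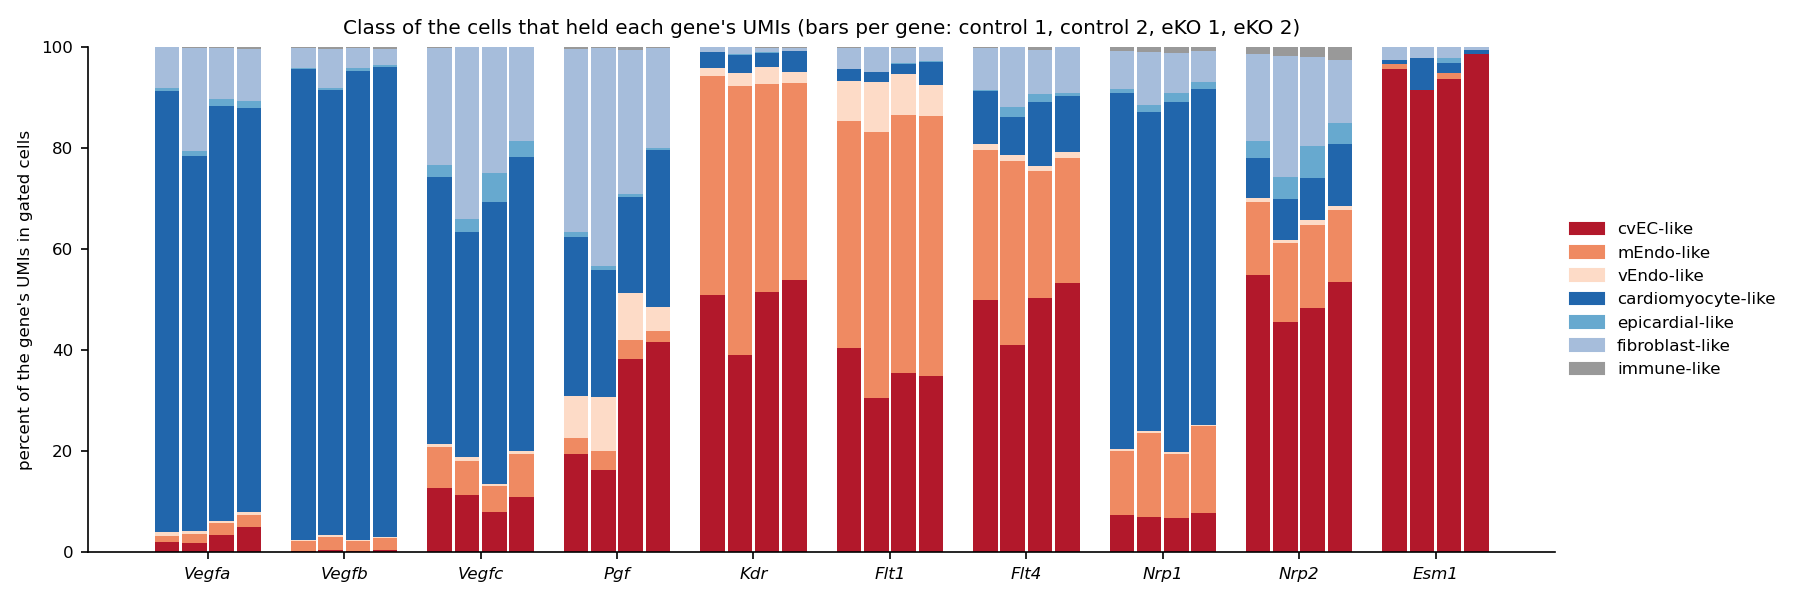
Percent of each gene's UMIs found in each of 7 marker-gated classes, 1 bar per library (control 1, control 2, eKO 1, eKO 2). Blue shades stand for cardiomyocyte-like, epicardial-like and fibroblast-like cells and red shades for endothelial classes, with immune-like cells in grey. The ligands *Vegfa* and *Vegfb* lie mostly in cardiomyocyte-like cells (means 80.9% and 91.8%), and *Kdr*, *Flt1* and *Flt4* mostly in endothelial classes.

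Between genotypes, 2 of the 10 genes passed the threshold in cvEC-like cells, where 0.664% of 11295 genes tested passed it: *Pgf* and *Vegfa*, both higher in *Ets1* eKO. In mEndo-like cells 2 of the 9 genes tested passed it, against 2.91% of 13004 genes: *Kdr* and *Flt4*, both lower. At an unadjusted p under 0.05 stood 5 of 10 in cvEC-like cells, beside 1425 of all genes, and DESeq2 called 3, beside 69. For mEndo-like cells these counts were 6 of 9, beside 2550, and 2 by DESeq2, beside 328. *Esm1* had too few UMIs there to be tested. None passed in vEndo-like cells with edgeR (0 of 8, against 0.221% of 8600 genes; 1 at an unadjusted p under 0.05 and 0 by DESeq2), where *Flt4* and *Esm1* could not be tested. For cardiomyocyte-like cells edgeR gave 0 of 9 genes, against 0% of 16487 genes, with 1 at an unadjusted p under 0.05 and 0 by DESeq2. Epicardial-like cells gave 0 of 5 with edgeR, against 0.0489% of 10228 genes (1 unadjusted, 0 by DESeq2), and fibroblast-like cells 0 of 9, against 0.0202% of 14855 genes (1 unadjusted, 0 by DESeq2). Of all genes, 762, 1819, 697 and 1642 had an unadjusted p under 0.05 in vEndo-like, cardiomyocyte-like, epicardial-like and fibroblast-like cells, and DESeq2 called 9, 30, 0 and 123. The median log2 difference of the VEGF genes tested was -0.10 in cvEC-like, -0.23 in mEndo-like and -0.15 in vEndo-like cells, beside medians of 0.01, 0.00 and 0.01 over all genes tested. With total count scaling the all-gene medians were -0.08, -0.05 and -0.01.

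**Figure D2:**
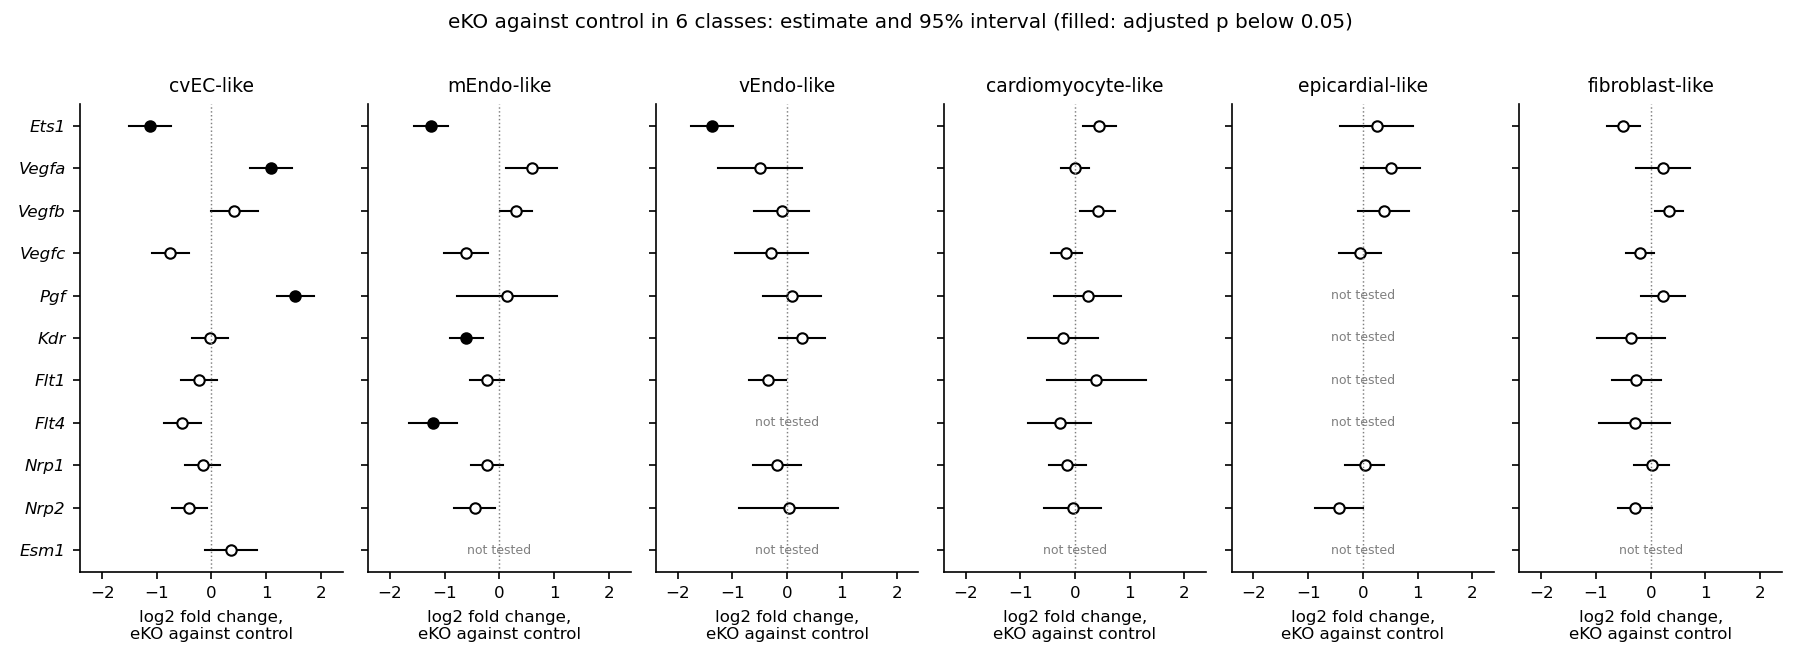
Log2 fold change of *Ets1* and the 10 VEGF genes, *Ets1* eKO against control, in 6 classes (x axis; points are edgeR estimates, lines 95% intervals, 2 libraries per genotype). Filled points passed an adjusted p of 0.05: *Pgf* and *Vegfa* in cvEC-like cells to the right, *Kdr* and *Flt4* in mEndo-like cells to the left, and *Ets1* in the 3 endothelial classes.

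Among the ligands, *Vegfa* (ENSMUSG00000023951, chromosome 17, 46016993 to 46032369, minus strand, GRCm38) encodes the main vessel growth factor. In cvEC-like cells it stood at 19.3 and 19.5 CPM in control 1 and control 2 and 35.2 and 42.2 CPM in eKO 1 and eKO 2. Both *Ets1* eKO libraries were above both controls, which were nearly equal. *Vegfa* rose by 1.09 on the log2 scale (SE 0.18, 95% interval 0.70 to 1.48, 2.13-fold, adjusted p 0.0210), rank 212 of 11295 genes by absolute log2 fold change. Had the *Vegfa* UMIs of this class come from cardiomyocyte RNA at the ratio of *Vegfa* to the cardiomyocyte markers seen in cardiomyocyte-like cells, the level would have been 0.903, 0.615, 0.813 and 0.915 CPM. Immune-like cells were not tested between genotypes. Their *Vegfa* levels were 3.38 and 5.86 CPM (controls) against 6.08 and 11.2 CPM (*Ets1* eKO), also higher in *Ets1* eKO without overlap, from 4, 4, 8 and 14 UMIs. These levels were also above the same estimate, which was 1.29, 0.621, 1.01 and 1.30 CPM there. The part of carried-over RNA was not tested. In mEndo-like cells *Vegfa* stood at 8.13 and 7.96 CPM (controls) against 12.4 and 11.0 CPM (*Ets1* eKO), again without overlap, and the log2 difference of 0.59 (SE 0.21) missed the threshold (adjusted p 0.158). The vEndo-like values were 49.4 and 26.9 CPM (controls) against 24.5 and 29.6 CPM (*Ets1* eKO), with control 1 far above the other 3 libraries, and the log2 difference was -0.50 (SE 0.36, adjusted p 0.730). A test of the difference between effects gave -1.59 for vEndo-like minus cvEC-like cells (SE 0.36, 95% interval -2.33 to -0.85, adjusted p 0.0487). The call was lost in 5 of its 7 alternatives: without control 1 the difference was -1.05 (adjusted p 0.577), and without eKO 2 it was -1.57 (adjusted p 0.0639). Total count scaling gave -1.52 (adjusted p 0.108), halved class thresholds -1.51 (adjusted p 0.0631) and doubled class thresholds -1.64 (adjusted p 0.429). Adjusted p over its alternatives ran from 7.67e-04 to 0.577. Between mEndo-like and cvEC-like cells the effects differed by -0.48 (adjusted p 0.465).

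As a myocardial ligand *Vegfa* had similar values in all 4 libraries. In CPM, which are scaled by total count, both controls lay slightly above both *Ets1* eKO libraries. The log2 difference, which uses TMM scaling, did not show that order. Cardiomyocyte-like cells held 59.1 and 56.8 CPM (controls) against 56.0 and 50.9 CPM (*Ets1* eKO), with a log2 difference of -0.00 (SE 0.11, 95% interval -0.25 to 0.25, adjusted p 0.994). Compact-like cells held 61.4 and 67.9 CPM (controls) against 61.6 and 58.5 CPM (*Ets1* eKO), and trabecular-like cells 55.3 and 44.2 CPM (controls) against 40.6 and 41.3 CPM (*Ets1* eKO). Every compact-like value lay above every trabecular-like value. *Vegfa* was lower in trabecular-like than in compact-like cells by a log2 difference of -0.38 (SE 0.07, adjusted p 2.21e-04). In epicardial-like cells the values were 24.2 and 28.0 CPM (controls) against 30.6 and 40.5 CPM (*Ets1* eKO), without overlap (0.51 on the log2 scale, adjusted p 0.722). Fibroblast-like cells held 26.3 and 39.8 CPM (controls) against 30.4 and 41.9 CPM (*Ets1* eKO), with overlap (0.22, adjusted p 0.705). Across classes the mean level was highest in cardiomyocyte-like cells (55.7 CPM), with no overlap with the next class. Fibroblast-like, vEndo-like and epicardial-like cells had means of 34.6, 32.6 and 30.8 CPM, each overlapping its neighbour. The cvEC-like mean was below these in the controls (19.4 CPM) and above them in *Ets1* eKO (38.7 CPM), and mEndo-like and immune-like cells were lowest (9.87 and 6.63 CPM).

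*Pgf* (ENSMUSG00000004791, chromosome 12, 85166635 to 85177790, minus strand) encodes placental growth factor, a ligand of the *Flt1* product. cvEC-like cells held 24.1 and 24.1 CPM in control 1 and control 2 and 67.9 and 63.6 CPM in eKO 1 and eKO 2, from 127, 73, 257 and 286 UMIs. Both controls stood near 24 CPM and both *Ets1* eKO libraries above 60 CPM. *Pgf* rose by 1.53 on the log2 scale (SE 0.15, 95% interval 1.20 to 1.87, 2.90-fold, adjusted p 0.00149), rank 79 of 11295 genes, and its value lay between 1.44 and 1.57 in the 12 alternatives run. The vEndo-like cells held much *Pgf* in both genotypes: 66.7 and 64.5 CPM (controls) against 81.3 and 54.3 CPM (*Ets1* eKO) (0.09 on the log2 scale, SE 0.24, adjusted p 0.949). Their *Ets1* eKO values lay on either side of the controls. The effect in vEndo-like minus that in cvEC-like cells was -1.46 (SE 0.27, 95% interval -2.03 to -0.90, adjusted p 0.0107), and with doubled class thresholds it was -1.59 with an adjusted p of 0.133 (the smallest over its alternatives was 7.23e-04). mEndo-like cells held little *Pgf*, with 2.55 and 2.50 CPM (controls) against 3.62 and 1.83 CPM (*Ets1* eKO) (0.14 on the log2 scale, SE 0.42, adjusted p 0.886). The mEndo-like minus cvEC-like difference of effects was -1.38 (SE 0.37) and missed the threshold with an adjusted p of 0.0589, while with halved class thresholds it passed (-1.59, adjusted p 0.0108) and without eKO 1 it was -1.90 (adjusted p 0.00616; up to 0.404 over its alternatives).

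Parts of the cvEC-like class were described without a test between genotypes. Arterial-like cells held 58.9 and 41.3 CPM (controls) against 124 and 74.2 CPM (*Ets1* eKO) for *Pgf*, without overlap. The other cvEC-like cells held 19.3 and 22.5 CPM (controls) against 63.8 and 63.7 CPM (*Ets1* eKO), also without overlap. Venous-like cells held 3.27 and 4.28 CPM (controls) against 3.82 and 43.3 CPM (*Ets1* eKO), where 16 of the UMIs were in eKO 2 and 2, 1 and 1 in control 1, control 2 and eKO 1. For *Vegfa*, the other cvEC-like cells held 15.9 and 20.3 CPM (controls) against 34.7 and 40.2 CPM (*Ets1* eKO) and arterial-like cells 36.3 and 14.5 CPM (controls) against 49.4 and 50.5 CPM (*Ets1* eKO), each without overlap. Venous-like cells held 16.3 and 21.4 CPM (controls) against 11.5 and 46.0 CPM (*Ets1* eKO), with eKO 1 below both controls and eKO 2 above them. By mean level over the 4 libraries, *Pgf* was highest in vEndo-like (66.7 CPM) and cvEC-like cells (44.9 CPM), whose values overlapped, then in fibroblast-like cells (14.3 CPM). Epicardial-like, cardiomyocyte-like, mEndo-like and immune-like cells held 3.15, 2.84, 2.62 and 1.95 CPM, each overlapping its neighbour. In fibroblast-like cells *Pgf* stood at 15.2 and 12.1 CPM (controls) against 15.1 and 14.7 CPM (*Ets1* eKO) (0.22 on the log2 scale, adjusted p 0.637).

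Shares of cells with a UMI were counted after each cell was thinned to 2000 UMIs, with exact binomial 95% intervals for counting error and the immune-like share as background. For *Pgf* in cvEC-like cells, 4.57% (2.68 to 7.22%) of cells in control 1 and 5.97% (3.12 to 10.2%) in control 2 had a UMI. In *Ets1* eKO the shares were 12.3% (8.83 to 16.6%) and 8.22% (6.01 to 10.9%), and the immune-like shares in the 4 libraries were 0.602%, 1.11%, 1.06% and 0.383%. For *Vegfa* in cvEC-like cells, 3.49% (1.87 to 5.90%) of cells in control 1 and 3.48% (1.41 to 7.04%) in control 2 had a UMI. In *Ets1* eKO the shares were 5.67% (3.34 to 8.92%) and 8.60% (6.35 to 11.3%), and the immune-like shares in the 4 libraries were 0.602%, 2.22%, 0.529% and 2.68%. In each case both *Ets1* eKO shares lay above both control shares, with overlapping intervals between some libraries. Thinning left out 12, 5, 13 and 17 cvEC-like and 5, 5, 22 and 38 immune-like cells with fewer UMIs. Before thinning the median depth was 11610, 11993, 9841 and 6299 UMIs in cvEC-like and 6395, 6871, 6126 and 3776 UMIs in immune-like cells. The mean unthinned shares were 16.9% in controls and 26.4% in *Ets1* eKO for *Pgf* and 20.2% and 26.1% for *Vegfa*. An exact permutation test over the 4 libraries, two-sided, gave p = 0.333 for both genes, the smallest it can give.

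*Vegfb* (ENSMUSG00000024962, chromosome 19, 6982473 to 6987651, minus strand), a further ligand of the *Flt1* product, was a cardiomyocyte gene in these data. Cardiomyocyte-like cells held 267 and 247 CPM in control 1 and control 2 and 326 and 306 CPM in eKO 1 and eKO 2. Both *Ets1* eKO values were above both controls, and the log2 difference of 0.41 (SE 0.14, 95% interval 0.09 to 0.74) missed the threshold (adjusted p 0.446). Compact-like cells held 274 and 257 CPM (controls) against 337 and 309 CPM (*Ets1* eKO), and trabecular-like cells 237 and 223 CPM (controls) against 268 and 270.0 CPM (*Ets1* eKO). Between these parts *Vegfb* differed by -0.17 (SE 0.05, adjusted p 0.00606), and without eKO 1 by -0.13 (adjusted p 0.0886, from 2.60e-04 over its alternatives), which missed the threshold. The other classes held far less, with no overlap with cardiomyocyte-like cells (286 CPM as the mean): 61.3 CPM in vEndo-like, 59.4 in fibroblast-like, 57.2 in epicardial-like, 49.5 in mEndo-like and 42.5 in immune-like cells, each overlapping its neighbour. cvEC-like cells were lowest at 19.0 CPM, without overlap. Their values were 15.5 and 18.5 CPM (controls) against 19.8 and 22.2 CPM (*Ets1* eKO) (0.42 on the log2 scale, adjusted p 0.408). At the cardiomyocyte ratio, 4.08, 2.67, 4.74 and 5.49 CPM of these would be carried by cardiomyocyte RNA, a part that was not tested. In mEndo-like, epicardial-like and fibroblast-like cells the log2 differences between genotypes were 0.30, 0.38 and 0.33 (adjusted p 0.247, 0.739 and 0.371).

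*Vegfc* (ENSMUSG00000031520, chromosome 8, 54077606 to 54187096, plus strand) encodes the ligand of the *Flt4* product, known for lymphatic and early coronary growth. In cvEC-like cells it stood at 164 and 198 CPM in control 1 and control 2 and 93.8 and 108 CPM in eKO 1 and eKO 2. Both controls were above both *Ets1* eKO libraries. The log2 difference was -0.75 (SE 0.16, 95% interval -1.09 to -0.41) and missed the threshold (adjusted p 0.0644), while DESeq2 gave -0.75 with an adjusted p of 0.0268 and total count scaling -0.84 with 0.0394. It also passed with a replicate block (-0.75, adjusted p 0.0123), with no count filter (-0.75, adjusted p 7.87e-04) and with halved class thresholds (-0.79, adjusted p 0.0395). Of the libraries left out, it passed without control 1 (-0.89, adjusted p 0.0365), without eKO 1 (-0.64, 0.0177) and without eKO 2 (-0.87, 7.53e-04). Without control 2 it did not (-0.62, 0.330), and adjusted p over all its alternatives ran from 7.53e-04 to 0.330. Each of these 4 fits has 1 library in a group, so the passes describe the fit and not how firm the difference is. The replicate block and the missing count filter each raised the number of all genes past the threshold in cvEC-like and mEndo-like cells. Paired libraries correlated at -0.09 in cvEC-like and 0.01 in mEndo-like cells. Passes of *Vegfc* with these settings, here and in mEndo-like cells below, therefore add no weight either. Arterial-like cells held the most *Vegfc*, with 563 and 665 CPM (controls) against 281 and 324 CPM (*Ets1* eKO). Their controls did not overlap with *Ets1* eKO, and no test between genotypes was run in them. Venous-like cells held 40.9 and 89.9 CPM (controls) against 22.9 and 59.5 CPM (*Ets1* eKO), with overlap, and the other cvEC-like cells 90.4 and 111 CPM (controls) against 67.1 and 70.6 CPM (*Ets1* eKO), without overlap. The venous-like minus arterial-like difference was -3.25 (SE 0.19, adjusted p 1.71e-13), rank 38 of 6454 genes. In mEndo-like cells *Vegfc* stood at 65.9 and 55.0 CPM (controls) against 30.8 and 45.2 CPM (*Ets1* eKO), without overlap, and the log2 difference of -0.61 (SE 0.18) missed the threshold (adjusted p 0.0975). There it passed with a replicate block (-0.63, adjusted p 0.00317), with no count filter (-0.60, adjusted p 0.00857), without control 2 (-0.71, adjusted p 0.0353) and without eKO 2 (-0.94, 0.0115), with a range from 0.00317 to 0.256 over its alternatives.

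Outside the endothelium, epicardial-like cells held *Vegfc* at 131 and 124 CPM (controls) against 131 and 101 CPM (*Ets1* eKO). eKO 2 was lowest and the other 3 libraries were close, with a log2 difference of -0.06 between genotypes (SE 0.18, adjusted p 0.962). Cardiomyocyte-like cells held 47.1 and 58.0 CPM (controls) against 43.2 and 43.4 CPM (*Ets1* eKO) (-0.16, adjusted p 0.556), and fibroblast-like cells 101 and 113 CPM (controls) against 85.3 and 88.5 CPM (*Ets1* eKO) (-0.20, adjusted p 0.527). Compact-like cells held 56.3 and 72.5 CPM (controls) against 50.6 and 51.1 CPM (*Ets1* eKO), and trabecular-like cells 31.5 and 35.3 CPM (controls) against 29.5 and 29.6 CPM (*Ets1* eKO). Each compact-like value was above each trabecular-like value, with a trabecular-like minus compact-like difference of -0.79 (SE 0.06, adjusted p 6.18e-09). In the controls cvEC-like cells had the highest mean (181 CPM), above epicardial-like (128 CPM) and fibroblast-like cells (107 CPM). In *Ets1* eKO epicardial-like cells had the highest mean (116 CPM), beside cvEC-like (101 CPM) and fibroblast-like cells (86.9 CPM), but epicardial-like values were above cvEC-like values in eKO 1 and below them in eKO 2. mEndo-like, cardiomyocyte-like and vEndo-like cells formed a lower group with means over the 4 libraries of 49.2, 47.9 and 43.0 CPM that overlapped each other. Immune-like cells were lowest (3.21 CPM). In vEndo-like cells *Vegfc* stood at 39.5 and 55.1 CPM (controls) against 29.7 and 47.8 CPM (*Ets1* eKO) (-0.29, adjusted p 0.832), with overlap.

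**Figure D3:**
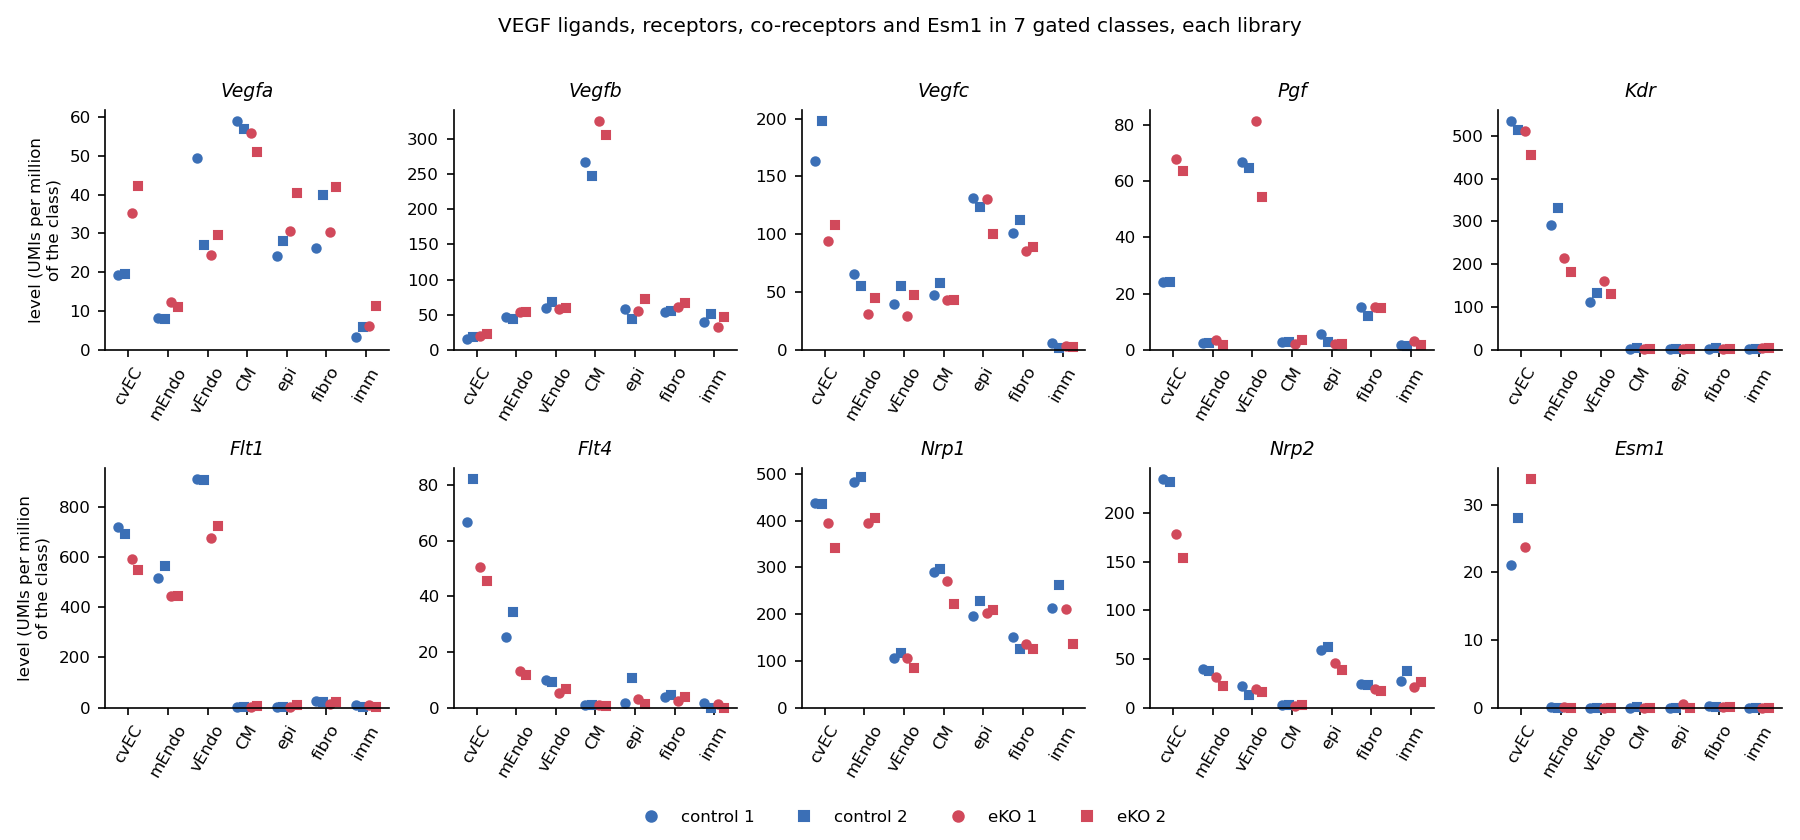
Level of each of the 10 genes (y axis, CPM of the class) in 7 classes (x axis), 1 point per library, blue for control and red for *Ets1* eKO. In the cvEC panel positions the red points of *Pgf* and *Vegfa* lie above the blue ones, and in the mEndo positions the red points of *Kdr* and *Flt4* lie below.

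Of the receptors, *Kdr* (ENSMUSG00000062960, chromosome 5, 75932827 to 75978458, minus strand) encodes the main signalling receptor for VEGF-A. In mEndo-like cells it stood at 291 and 331 CPM in control 1 and control 2 and 214 and 182 CPM in eKO 1 and eKO 2. Both *Ets1* eKO values were below both controls. *Kdr* fell by 0.60 on the log2 scale (SE 0.14, 95% interval -0.91 to -0.29, 1.52-fold lower, adjusted p 0.0439), rank 1406 of 13004 genes by absolute log2 fold change. This call depended on single libraries: without control 2 the difference was -0.47 (adjusted p 0.2797) and without eKO 2 it was -0.50 (adjusted p 0.0983). It also missed the threshold when the cells with most UMIs were left out (-0.57, adjusted p 0.0666), and adjusted p over the 12 alternatives ran from 0.00322 to 0.2797, with log2 differences from -0.71 to -0.47. The authors split mural endocardium into smaller clusters and report that the main genotype differed between them. That division was not made here. A shift in the mix of such cells between genotypes and a change within them were therefore not separated. The part of each was not tested, for *Kdr* or for any gene in mEndo-like cells. In cvEC-like cells *Kdr* stood at 534 and 513 CPM (controls) against 510.4 and 455 CPM (*Ets1* eKO). In CPM, scaled by total count, both controls lay above both *Ets1* eKO libraries, with eKO 1 close to control 2 and eKO 2 lowest. The log2 difference was -0.03 (SE 0.15, 95% interval -0.36 to 0.30, adjusted p 0.948). The vEndo-like values were 112 and 133 CPM (controls) against 161 and 130.1 CPM (*Ets1* eKO), with overlap and a log2 difference of 0.28 (SE 0.19, 95% interval -0.14 to 0.69, adjusted p 0.718). By mean level the order was cvEC-like (503 CPM), mEndo-like (254) and vEndo-like cells (134), without overlap, and every other class stayed at or below 3.34 CPM.

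The effect on *Kdr* differed between classes. For mEndo-like minus cvEC-like cells the difference of effects was -0.54 (SE 0.10, 95% interval -0.75 to -0.33, adjusted p 0.00375), the only one of the 10 genes tested to pass, against 1.51% of 13047 genes. Without eKO 2 it was -0.52 and missed the threshold (adjusted p 0.103, from 1.03e-05 over its alternatives). For vEndo-like minus mEndo-like cells it was 0.85 (SE 0.17, 95% interval 0.49 to 1.20, adjusted p 0.00782), the only one of 9 genes tested to pass, against 0.688% of 12493 genes. That difference missed the threshold without eKO 1 (0.78, adjusted p 0.163, from 0.00377 over its alternatives) and was 0.25 with doubled class thresholds, which also missed it. Between vEndo-like and cvEC-like cells the *Kdr* effects differed by 0.30 (SE 0.17, adjusted p 0.752). In that last comparison *Vegfa* and *Pgf*, described above, were the 2 of 10 genes to pass, against 0.358% of 11170 genes.

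**Figure D4:**
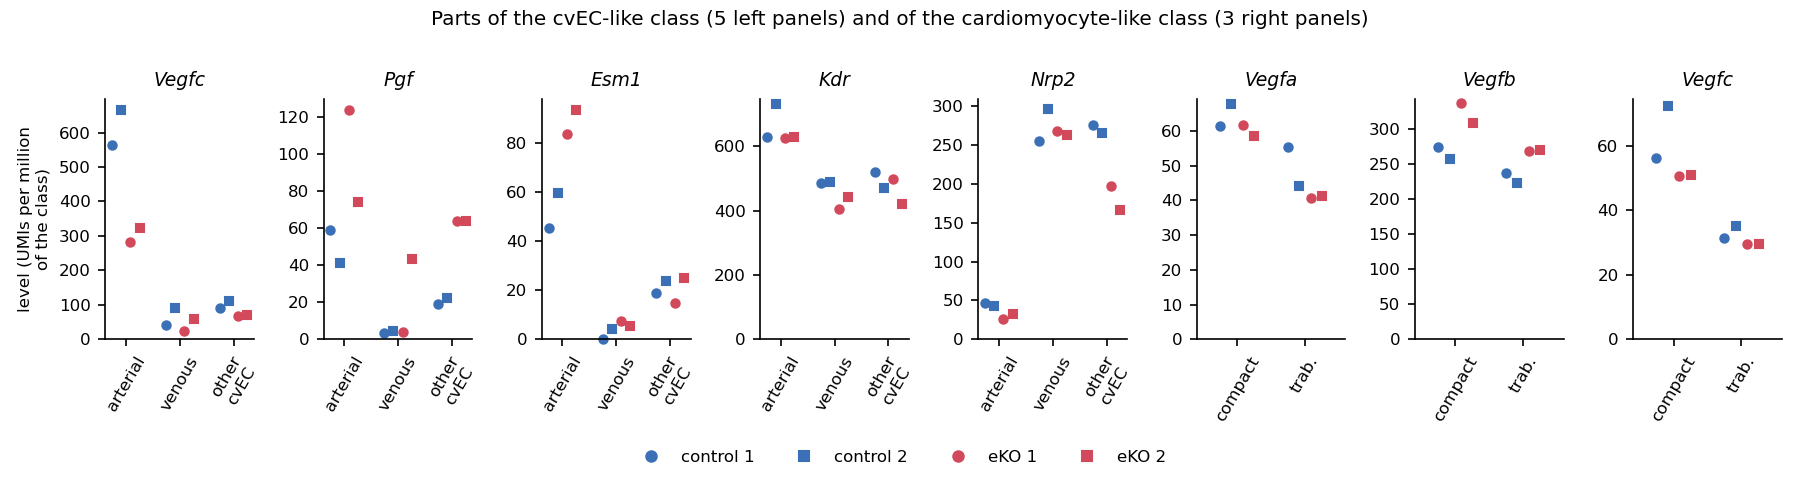
Level (y axis, CPM) of *Vegfc*, *Pgf*, *Esm1*, *Kdr* and *Nrp2* in 3 parts of the cvEC-like class, and of *Vegfa*, *Vegfb* and *Vegfc* in compact-like and trabecular-like cardiomyocytes, 1 point per library. *Vegfc* and *Esm1* are highest and *Nrp2* lowest in arterial-like cells in every library.

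Shares of mEndo-like cells were counted in the same way after thinning. For *Kdr* in mEndo-like cells, 39.8% (36.7 to 43.0%) of cells in control 1 and 43.0% (39.3 to 46.8%) in control 2 had a UMI. In *Ets1* eKO the shares were 32.3% (29.2 to 35.5%) and 27.2% (24.99 to 29.5%), and the immune-like shares in the 4 libraries were 0%, 0%, 2.12% and 1.15%. The *Kdr* share was thus lower in both *Ets1* eKO libraries than in both controls, and far above the immune-like share. For *Flt4* in mEndo-like cells, 4.45% (3.24 to 5.94%) of cells in control 1 and 5.84% (4.22 to 7.84%) in control 2 had a UMI. In *Ets1* eKO the shares were 2.43% (1.51 to 3.69%) and 2.49% (1.76 to 3.40%), and the immune-like shares in the 4 libraries were 0%, 0%, 0% and 0%. Both *Ets1* eKO shares of *Flt4* were below both control shares. Thinning to 2000 UMIs left out 36, 14, 15 and 77 mEndo-like cells, and the median depth before it was 6875, 7511.5, 7008 and 4308.5 UMIs. The mean unthinned shares were 77.6% in controls and 56.9% in *Ets1* eKO for *Kdr* and 20.6% and 7.29% for *Flt4*. The exact permutation p over the 4 libraries was 0.333 for each, the smallest possible.

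*Flt1* (ENSMUSG00000029648, chromosome 5, 147561604 to 147726011, minus strand) encodes a high-affinity receptor for VEGF-A, VEGF-B and PlGF, made in membrane-bound and soluble forms that these 3′ counts do not tell apart. vEndo-like cells held 910.1 and 906 CPM in control 1 and control 2 and 673 and 725 CPM in eKO 1 and eKO 2. The groups did not overlap, and the log2 difference of -0.36 (SE 0.16, 95% interval -0.70 to -0.02) missed the threshold (adjusted p 0.540). cvEC-like cells held 720.3 and 692 CPM (controls) against 591 and 548 CPM (*Ets1* eKO) (-0.22 on the log2 scale, SE 0.15, adjusted p 0.561). In mEndo-like cells the values were 515 and 566 CPM (controls) against 446 and 445 CPM (*Ets1* eKO) (-0.23, SE 0.14, adjusted p 0.398). Controls lay above *Ets1* eKO in all 3 classes without overlap, and no log2 difference of *Flt1* passed. By mean level the order was vEndo-like (804 CPM), cvEC-like (638) and mEndo-like cells (493), each overlapping the next. Fibroblast-like cells followed at 20.7 CPM without overlap, then immune-like, epicardial-like and cardiomyocyte-like cells at 7.13, 4.84 and 3.44 CPM. At that low level the cardiomyocyte-like difference between genotypes was 0.39 (adjusted p 0.649), and it passed without eKO 1 (0.92, adjusted p 0.00257, up to 0.998 over its alternatives).

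*Flt4* (ENSMUSG00000020357, chromosome 11, 49609263 to 49652739, plus strand) encodes the receptor for VEGF-C. In mEndo-like cells it stood at 25.5 and 34.4 CPM in control 1 and control 2 and 13.2 and 11.6 CPM in eKO 1 and eKO 2, from 210, 220, 95 and 95 UMIs. Both *Ets1* eKO libraries were far below both controls. *Flt4* fell by 1.21 on the log2 scale (SE 0.20, 95% interval -1.65 to -0.78, 2.32-fold lower, adjusted p 0.00698), rank 266 of 13004 genes, and it passed in each of the 12 alternatives run, with log2 differences from -1.43 to -0.96. Of these 12, 4 leave out a library and so hold 1 library in a group, and as for *Kdr* the mix of mural endocardial cells was not tested. The cvEC-like values were 66.7 and 82.1 CPM (controls) against 50.5 and 45.6 CPM (*Ets1* eKO), again without overlap. Their log2 difference of -0.54 (SE 0.15, 95% interval -0.87 to -0.20) missed the threshold (adjusted p 0.186), and it passed without eKO 1 (-0.59, adjusted p 0.0390, up to 0.740 over its alternatives). The mEndo-like minus cvEC-like difference of effects was -0.64 (SE 0.17, 95% interval -0.98 to -0.29, adjusted p 0.0561), which missed the threshold, and with doubled class thresholds it passed (-0.86, adjusted p 0.00677). vEndo-like cells held 9.88 and 9.41 CPM (controls) against 5.16 and 6.59 CPM (*Ets1* eKO), from 8, 7, 4 and 4 UMIs, too few for the test. *Flt4* is also a lymphatic gene, so lymphatic markers were summed: *Lyve1*, *Pdpn*, *Mmrn1* and *Reln* together stood at 18.3 and 12.6 CPM (controls) against 71.6 and 48.3 CPM (*Ets1* eKO) in mEndo-like cells, led by *Lyve1*, and at 6.06 and 2.97 CPM (controls) against 5.55 and 4.22 CPM (*Ets1* eKO) in cvEC-like cells. *Lyve1* had a mean of 34.9 CPM in mEndo-like cells, beside 1.69 for *Mmrn1*, 0.626 for *Pdpn* and 0.465 for *Reln*. It was not confined to endothelium, with 193 CPM in immune-like cells. The mEndo-like sum, mostly *Lyve1*, was higher in both *Ets1* eKO libraries while *Flt4* was lower. The part of that sum in the *Flt4* result was not tested. The mean *Flt4* level was 61.2 CPM in cvEC-like, 21.2 in mEndo-like and 7.76 in vEndo-like cells, without overlap between these 3, and at most 4.25 CPM in the other classes, where vEndo-like and epicardial-like values overlapped.

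Among the co-receptors, *Nrp1* (ENSMUSG00000025810, chromosome 8, 128358604 to 128503363, plus strand) encodes neuropilin 1, which binds VEGF-A and semaphorins. mEndo-like cells held 482 and 493 CPM in control 1 and control 2 and 394 and 406 CPM in eKO 1 and eKO 2, and cvEC-like cells 438 and 435 CPM (controls) against 395 and 341 CPM (*Ets1* eKO). Controls lay above *Ets1* eKO in both classes. The log2 differences of -0.23 (SE 0.13, adjusted p 0.369) and -0.16 (SE 0.15, adjusted p 0.673) missed the threshold. vEndo-like cells held 106 and 117 CPM (controls) against 107 and 84.0 CPM (*Ets1* eKO) (-0.19, adjusted p 0.832). Outside the endothelium cardiomyocyte-like cells held 291 and 295 CPM (controls) against 270.1 and 221 CPM (*Ets1* eKO), lowest in eKO 2 (-0.14, adjusted p 0.656). Between mEndo-like (444 CPM) and cvEC-like cells (402 CPM) the levels overlapped. The next classes were cardiomyocyte-like (269 CPM), epicardial-like (209), immune-like (206) and fibroblast-like cells (134), each overlapping its neighbour, and vEndo-like cells were lowest (104) without overlap.

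*Nrp2* (ENSMUSG00000025969, chromosome 1, 62703285 to 62818695, plus strand) encodes neuropilin 2, a co-receptor for VEGF-C known from venous and lymphatic endothelium. In cvEC-like cells it stood at 235 and 232 CPM in control 1 and control 2 and 178 and 154 CPM in eKO 1 and eKO 2. The groups did not overlap, and the log2 difference of -0.40 (SE 0.14, 95% interval -0.72 to -0.09) missed the threshold (adjusted p 0.295). mEndo-like cells held 39.7 and 37.6 CPM (controls) against 32.0 and 22.7 CPM (*Ets1* eKO) (-0.45, SE 0.17, adjusted p 0.177), and without eKO 1 the difference passed (-0.70, adjusted p 0.0381, up to 0.562 over its alternatives). Venous-like cells held 255 and 296 CPM (controls) against 268 and 262 CPM (*Ets1* eKO), and arterial-like cells 46.5 and 43.4 CPM (controls) against 26.6 and 32.7 CPM (*Ets1* eKO). Every venous-like value was above every arterial-like value, with a log2 difference of 2.72 (SE 0.18, 6.60-fold, adjusted p 3.30e-12). The other cvEC-like cells held 276 and 265 CPM (controls) against 197 and 166 CPM (*Ets1* eKO), without overlap between genotypes, and were not tested between them. Epicardial-like cells were the next highest class (51.7 CPM against 199.97 in cvEC-like cells), with 59.7 and 62.3 CPM (controls) against 45.7 and 39.1 CPM (*Ets1* eKO) and a log2 difference of -0.44 (SE 0.21, adjusted p 0.722). The remaining mean levels were 33.0 in mEndo-like, 28.4 in immune-like, 21.3 in fibroblast-like, 17.9 in vEndo-like and 2.55 CPM in cardiomyocyte-like cells. Of these only the cardiomyocyte-like values did not overlap the next higher class.

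*Esm1* (ENSMUSG00000042379, chromosome 13, 113209659 to 113218098, plus strand) encodes endocan, a secreted proteoglycan that VEGF-A induces in tip cells. cvEC-like cells held 21.0 and 28.0 CPM in control 1 and control 2 and 23.8 and 33.8 CPM in eKO 1 and eKO 2, from 111, 85, 90 and 152 UMIs. The groups overlapped, and the log2 difference was 0.36 (SE 0.22, 95% interval -0.12 to 0.84, adjusted p 0.521). In arterial-like cells *Esm1* stood at 45.3 and 59.9 CPM (controls) against 83.7 and 93.5 CPM (*Ets1* eKO), where both *Ets1* eKO values were higher, and this was not tested. The other cvEC-like cells held 18.8 and 23.8 CPM (controls) against 14.7 and 25.2 CPM (*Ets1* eKO), with overlap. Venous-like cells held 0, 1, 2 and 2 UMIs in control 1, control 2, eKO 1 and eKO 2. The mEndo-like class held 1, 0, 1 and 0 UMIs, and the vEndo-like and immune-like classes 0 in every library. A count of 0 in the vEndo-like sums allows up to 3.70, 4.03, 3.87 and 4.94 CPM (3 counts). After thinning, 3.76%, 7.46%, 5.67% and 5.74% of cvEC-like cells had an *Esm1* UMI, and 0% of immune-like cells in each library. The share was highest in control 2, and the exact permutation p over the 4 libraries was 1.00.

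Differences between classes were tested with library as a term, so that each averages over both genotypes. From cvEC-like to mEndo-like cells 9 of 10 genes passed, against 68.1% of 12307 genes: *Vegfb* was higher in mEndo-like cells and 8 genes were lower. *Pgf* differed most after *Esm1*, with a log2 difference of -4.26 (SE 0.22, adjusted p 4.34e-09), followed by *Nrp2* with -2.79 (SE 0.07, adjusted p 7.55e-12). *Esm1* passed (adjusted p 1.94e-10), with means of 26.7 and 0.0651 CPM, and no fold change is given because 2 mEndo-like sums were 0. For *Kdr* the difference was -1.21 (SE 0.10), for *Flt4* -1.77 (SE 0.12) and for *Flt1* -0.56 (SE 0.05). *Nrp1* was the one that did not pass (-0.05, SE 0.05, adjusted p 0.460), and with total count scaling it passed in the other direction (0.14, adjusted p 0.0272, up to 0.971 over its alternatives). That scaling put the median of all genes at 0.23, beside 0.04 with TMM.

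From cvEC-like to vEndo-like cells 9 of 10 genes passed, against 46.4% of 10368 genes. *Kdr* (-2.06, SE 0.09), *Flt4* (-3.12, SE 0.21), *Nrp1* (-2.11, SE 0.09), *Nrp2* (-3.63, SE 0.15), *Vegfc* (-1.86, SE 0.13) and *Esm1* were lower in vEndo-like cells. *Vegfb* was higher there (1.54, SE 0.16, adjusted p 2.80e-08). *Pgf* was higher by 0.52 (SE 0.21, adjusted p 0.0454), a call lost with halved class thresholds (0.35, adjusted p 0.217), without control 1 (0.25, adjusted p 0.325) and without control 2 (0.29, adjusted p 0.331, from 0.00332 over its alternatives). In the controls *Pgf* had means of 65.6 CPM (vEndo-like) and 24.1 CPM (cvEC-like), and in *Ets1* eKO of 67.8 and 65.7 CPM. *Flt1* was higher by 0.18 (SE 0.07, adjusted p 0.0340), a call lost without control 1, control 2 or eKO 2 (0.16, 0.13 and 0.17), with no count filter (0.06) and with halved class thresholds (0.05). Only *Vegfa* did not pass (0.09, SE 0.24, adjusted p 0.801). Its means went opposite ways by genotype, with 38.1 CPM (vEndo-like) and 19.4 CPM (cvEC-like) in the controls. In *Ets1* eKO they were 27.1 and 38.7 CPM. Total count scaling put the median of all genes at 0.16 here.

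Within the endocardium, from mEndo-like to vEndo-like cells, 7 of 9 genes tested passed, against 28.5% of 11698 genes. *Pgf* was higher in vEndo-like cells by 4.64 on the log2 scale (SE 0.21, 25.01-fold, adjusted p 1.55e-12), rank 58 of 11698 genes. *Vegfa* (1.72, SE 0.25) and *Flt1* (0.68, SE 0.07) were also higher. *Nrp1* (-2.11, SE 0.09), *Flt4* (-1.46, SE 0.26), *Kdr* (-0.92, SE 0.13) and *Nrp2* (-0.90, SE 0.20) were lower, and the last missed the threshold with halved class thresholds (-0.45, adjusted p 0.0722, from 6.05e-05 over its alternatives). *Vegfb* (0.30, adjusted p 0.114) and *Vegfc* (-0.21, adjusted p 0.353) did not pass.

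From arterial-like to venous-like cells 6 of 9 genes tested passed, against 35.7% of 6454 genes. *Nrp2* was higher in venous-like cells, and *Vegfc*, *Esm1*, *Pgf*, *Kdr* and *Nrp1* were lower. *Esm1* had means of 70.6 and 4.33 CPM (adjusted p 6.02e-09), with 0 UMIs in 1 venous-like sum. *Pgf* differed by -2.53 (SE 0.39, adjusted p 1.16e-05) and *Kdr* by -0.61 (SE 0.11, adjusted p 7.81e-05), and with doubled class thresholds *Kdr* missed the threshold (-0.77, adjusted p 0.335, from 3.24e-07 over its alternatives). For *Nrp1* the difference was -0.31 (SE 0.12, adjusted p 0.0354), a call lost when any 1 library was left out (-0.24, -0.34, -0.32 and -0.37 without control 1, control 2, eKO 1 and eKO 2). It was also lost with total count scaling (-0.20), the stricter cell filter (-0.30) and doubled class thresholds (-0.48). *Vegfa* (-0.81, adjusted p 0.0598), *Flt1* and *Flt4* did not pass, although *Flt1* passed with total count scaling (0.25, adjusted p 0.0319), and *Vegfa* with no count filter (-0.88, adjusted p 0.0323), halved class thresholds (-0.77, adjusted p 0.00693) and without control 2 (-0.99, adjusted p 0.0289, from 0.00693 over its alternatives), and *Vegfb* was too low to be tested. Total count scaling put the median of all genes at 0.13, beside 0.02 with TMM.

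The myocardial, epicardial and fibroblast-like sources of ligand were compared in the same way. From cardiomyocyte-like to epicardial-like cells 6 of 9 genes passed, against 66.2% of 15204 genes. *Vegfa* (-1.27, SE 0.13, adjusted p 2.72e-08) and *Vegfb* (-2.76, SE 0.09) were lower in epicardial-like cells. *Vegfc* was higher there by 0.93 (SE 0.09, adjusted p 3.58e-08), as was *Nrp2* by 3.91 (SE 0.18). *Nrp1* was lower (-0.78, SE 0.07), and the call for *Flt4* (1.63, SE 0.46) was lost without control 2 (0.89, adjusted p 0.172, from 8.03e-04 over its alternatives). From cardiomyocyte-like to fibroblast-like cells 8 of 9 passed, against 79.7% of 16023 genes, with *Vegfa* (-1.17, SE 0.12) and *Vegfb* (-2.72, SE 0.05) lower and *Vegfc* (0.56, SE 0.05) and *Pgf* (1.89, SE 0.14) higher in fibroblast-like cells. From epicardial-like to fibroblast-like cells 5 of 9 passed, against 52.9% of 13245 genes. Epicardial-like cells held more fibroblast than epicardial marker RNA, as given above, and its part in this comparison was not tested. Of the ligands, *Vegfc* was lower (-0.40, SE 0.09, adjusted p 0.00128) and *Pgf* higher (2.19, SE 0.28) in fibroblast-like cells, and *Vegfa* and *Vegfb* did not pass. From compact-like to trabecular-like cells 6 of 9 passed, against 44.7% of 13250 genes: *Vegfa*, *Vegfb*, *Vegfc* and *Nrp2* lower and *Nrp1* and *Flt4* higher in trabecular-like cells. The *Flt4* call there was lost without eKO 1 (0.95, adjusted p 0.0980), at means of 0.555 and 1.26 CPM. *Kdr* passed only without control 1 (0.83, adjusted p 0.0377), and *Flt1* passed with no count filter, the stricter cell filter, halved class thresholds (0.62, 0.74 and 0.57) and without eKO 2 (1.26, adjusted p 8.39e-04). With total count scaling the all-gene medians were 0.36 and 0.44 for the first pair of these comparisons, and 0.07 and -0.06 for the others, and the directions given for ligands were kept.

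Genes whose levels ran most like each member's were sought over the 28 sums of 7 classes in 4 libraries, by Pearson's r of log2(CPM + 1). The 11395 genes compared had at least 10 CPM in at least 4 sums. The VEGF genes themselves and all marker genes used to class cells were left out of the search. The sums share libraries and class depth, so r is a description. For *Esm1* r mainly sets cvEC-like cells (mean 26.7 CPM) against all other classes (means of at most 0.146 CPM). *Esm1* was most like *Nos2* (0.996), *Tmem252* (0.987) and *Apln* (0.976). For *Kdr* they were *Bcl6b* (0.989), *Mall* (0.988) and *Sox7* (0.984), and for *Flt1* *Thsd1* (0.981), *Ttc9* (0.981) and *Fgd5* (0.980). *Flt4* was most like *Notch4* (0.971), *Ldb2* (0.931) and *Prex2* (0.929). *Nrp2* ran with *Rell1* (0.941), *Mgmt* (0.914) and *Stx2* (0.912), and *Nrp1*, with the lowest values, with *Tmem88* (0.739), *Ttc7b* (0.733) and *Arhgap18* (0.730). Of the ligands, *Vegfc* was most like *Yaf2* (0.976), *Fkbp9* (0.931) and *Serpinh1* (0.930). *Pgf* ran with *Dkk2* (0.923), *Enpp2* (0.883) and *Prr7* (0.882), *Vegfa* with *Fkbp4* (0.897), *Znrd2* (0.885) and *Serp2* (0.883) and *Vegfb* with *Palld* (0.922), *Ppp1r12b* (0.921) and *Homer2* (0.920).

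The wider pathway was followed with lists of genes, beside the share of all genes tested that passed (0.664% in cvEC-like, 2.91% in mEndo-like, 0.221% in vEndo-like, 0% in cardiomyocyte-like, 0.0489% in epicardial-like and 0.0202% in fibroblast-like cells). At an unadjusted p under 0.05 stood 1425 of 11295, 2550 of 13004, 762 of 8600, 1819 of 16487, 697 of 10228 and 1642 of 14855 genes in these classes, and DESeq2 called 69, 328, 9, 30, 0 and 123. Of 32 genes of VEGF receptor signalling, from *Plcg1* to *Ptprb*, 30 were tested in cvEC-like cells, and edgeR called 0 in either direction (9 at an unadjusted p under 0.05, beside 1425 of 11295 genes, and 0 by DESeq2). Their median log2 difference was -0.19, beside 0.01 for all genes. In mEndo-like cells 31 were tested, with a median of -0.17 beside 0.00 and 9 at an unadjusted p under 0.05. Among these 31, 1 was lower (0 by DESeq2), against 2.91% of 13004 genes passing in either direction. That gene was *Shb*, an adaptor that binds the *Kdr* product, with 12.4 and 13.7 CPM (controls) against 7.0997 and 6.23 CPM (*Ets1* eKO) and -0.92 on the log2 scale (SE 0.22, adjusted p 0.0481). The call was lost without control 2 (-0.81, adjusted p 0.138) and without eKO 2 (-0.83, 0.136). vEndo-like cells gave 0 of 31 with edgeR (5 unadjusted, 0 by DESeq2; median -0.12). Of 4 genes of the VEGF-C and VEGF-D axis (*Vegfd*, *Ccbe1*, *Adamts3* and *Adamts14*), 1, 3 and 1 could be tested in cvEC-like, mEndo-like and vEndo-like cells, and edgeR called 0 in each (0, 1 and 0 unadjusted, 0 by DESeq2; medians -0.27, 0.58 and 0.45).

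All 16 VEGF-responsive and tip cell genes were tested in cvEC-like cells, with 5 at an unadjusted p under 0.05 and a median of -0.18. Of the 16, 1 was higher in *Ets1* eKO and none lower (1 by DESeq2), against 0.664% of 11295 genes passing. It was *Apln*, the apelin gene of tip cells, with 54.2 and 66.6 CPM (controls) against 108 and 90.4 CPM (*Ets1* eKO) and 0.81 on the log2 scale (SE 0.16, adjusted p 0.0481), a call lost without control 1 (0.65, adjusted p 0.290). In mEndo-like cells 13 were tested, with a median of -0.23 and 6 at an unadjusted p under 0.05. Of the 13, 1 was lower (0 by DESeq2), against 2.91% of all genes. This was *Nr4a1*, an immediate early gene, with 20.0 and 18.7 CPM (controls) against 11.3 and 7.93 CPM (*Ets1* eKO). Its log2 difference was -0.97 (SE 0.21, adjusted p 0.0291), a call lost without eKO 2 (-0.74). vEndo-like cells gave 0 of 9 with edgeR (2 unadjusted, 0 by DESeq2; median -0.30). Among 13 hypoxia-induced genes tested in cvEC-like cells 5 had an unadjusted p under 0.05. Their median was 0.36, beside 0.01 for all genes, and 1 of the 13 was higher (1 by DESeq2), against 0.664% of all genes. This was *Adm*, adrenomedullin, with 31.3 and 26.4 CPM (controls) against 63.2 and 52.4 CPM (*Ets1* eKO) and 1.07 (SE 0.16, adjusted p 0.0167). The list gave 0 of 12 in mEndo-like (1 unadjusted, 0 by DESeq2; median -0.03) and 0 of 9 in vEndo-like cells with edgeR (2 unadjusted, 0 by DESeq2; median 0.18). Of 7 hypoxia-sensing genes edgeR called 0 of 7 in cvEC-like (1 unadjusted, 0 by DESeq2; median -0.00) and 0 of 6 in vEndo-like cells (0 unadjusted, 0 by DESeq2; median 0.09). In mEndo-like cells 1 of 7 was lower, against 2.91% of all genes (2 unadjusted and 1 by DESeq2, with a median of -0.05). It was *Epas1*, a hypoxia-inducible factor, with 121 and 112 CPM (controls) against 69.6 and 74.2 CPM (*Ets1* eKO). Its log2 difference was -0.64 (SE 0.13, adjusted p 0.0182), a call lost without control 1 (-0.60).

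A last list held 4 angiogenesis genes, *Acvrl1*, *Cldn5*, *Sox18* and *Robo4*. The authors had named them in earlier work on younger embryos, along with *Kdr* and *Esm1*, and looked at them again in these libraries. In mEndo-like cells 3 of 4 were lower, against 2.91% of 13004 genes (3 by DESeq2): *Sox18* with 36.7 and 24.8 CPM (controls) against 3.90 and 7.20 CPM (*Ets1* eKO) and -2.399 on the log2 scale (SE 0.27, adjusted p 6.85e-04), *Robo4* with 16.9 and 15.6 CPM (controls) against 3.62 and 5.37 CPM (*Ets1* eKO) and -1.78 (SE 0.24, adjusted p 0.00206) and *Acvrl1* with 8.25 and 10.1 CPM (controls) against 3.34 and 2.93 CPM (*Ets1* eKO) and -1.49 (SE 0.28, adjusted p 0.0159), the last lost without eKO 2 (-1.41, adjusted p 0.0560). *Cldn5* did not pass, with 3.88 and 4.53 CPM (controls) against 2.65 and 3.05 CPM (*Ets1* eKO) and -0.49 (SE 0.34, adjusted p 0.444). The median was -1.64. None passed with edgeR in cvEC-like (0 of 4; 2 unadjusted, 1 by DESeq2; median -0.40) or vEndo-like cells (0 of 2; 1 unadjusted, 0 by DESeq2; median -0.46). The log2 differences in cvEC-like cells were -0.88 for *Sox18* (119.5 and 90.7 CPM (controls) against 44.9 and 62.4 CPM (*Ets1* eKO); adjusted p 0.0759), -0.52 for *Acvrl1* (43.8 and 33.3 CPM (controls) against 23.5 and 27.6 CPM (*Ets1* eKO); adjusted p 0.297), -0.29 for *Cldn5* (356 and 291 CPM (controls) against 277 and 223 CPM (*Ets1* eKO); adjusted p 0.497) and -0.29 for *Robo4* (51.9 and 56.7 CPM (controls) against 43.1 and 40.4 CPM (*Ets1* eKO); adjusted p 0.439). In cardiomyocyte-like cells edgeR called 0 of the 14 hypoxia-induced genes (2 unadjusted, 0 by DESeq2; median 0.02) and 0 of the 7 hypoxia-sensing genes (1 unadjusted, 0 by DESeq2; median 0.11). Epicardial-like cells gave 0 of 11 (2 unadjusted, 0 by DESeq2; median 0.24) and 0 of 7 (0 unadjusted, 0 by DESeq2; median -0.04) for the same lists. For fibroblast-like cells edgeR gave 0 of 14 (1 unadjusted, 0 by DESeq2; median 0.06) and 0 of 7 (0 unadjusted, 0 by DESeq2; median -0.00). The VEGF-responsive list gave 0 of 15, 0 of 7 and 0 of 13 with edgeR in cardiomyocyte-like, epicardial-like and fibroblast-like cells (6, 4 and 6 unadjusted, beside 1819 of 16487, 697 of 10228 and 1642 of 14855 genes), and DESeq2 called 2, 0 and 2 of them, beside 30, 0 and 123 of all genes. Its medians in these classes were -0.17, -0.57 and -0.28, beside 0.01 for all genes in each. The signalling list gave 0 of 31, 0 of 28 and 0 of 31 with edgeR (6, 3 and 7 unadjusted, 0 by DESeq2; medians -0.13, -0.05 and -0.07). For the VEGF-C and VEGF-D axis edgeR gave 0 of 4, 0 of 3 and 0 of 4 (0, 1 and 2 unadjusted, 0 by DESeq2; medians -0.11, -0.36 and -0.11).

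**Figure D5:**
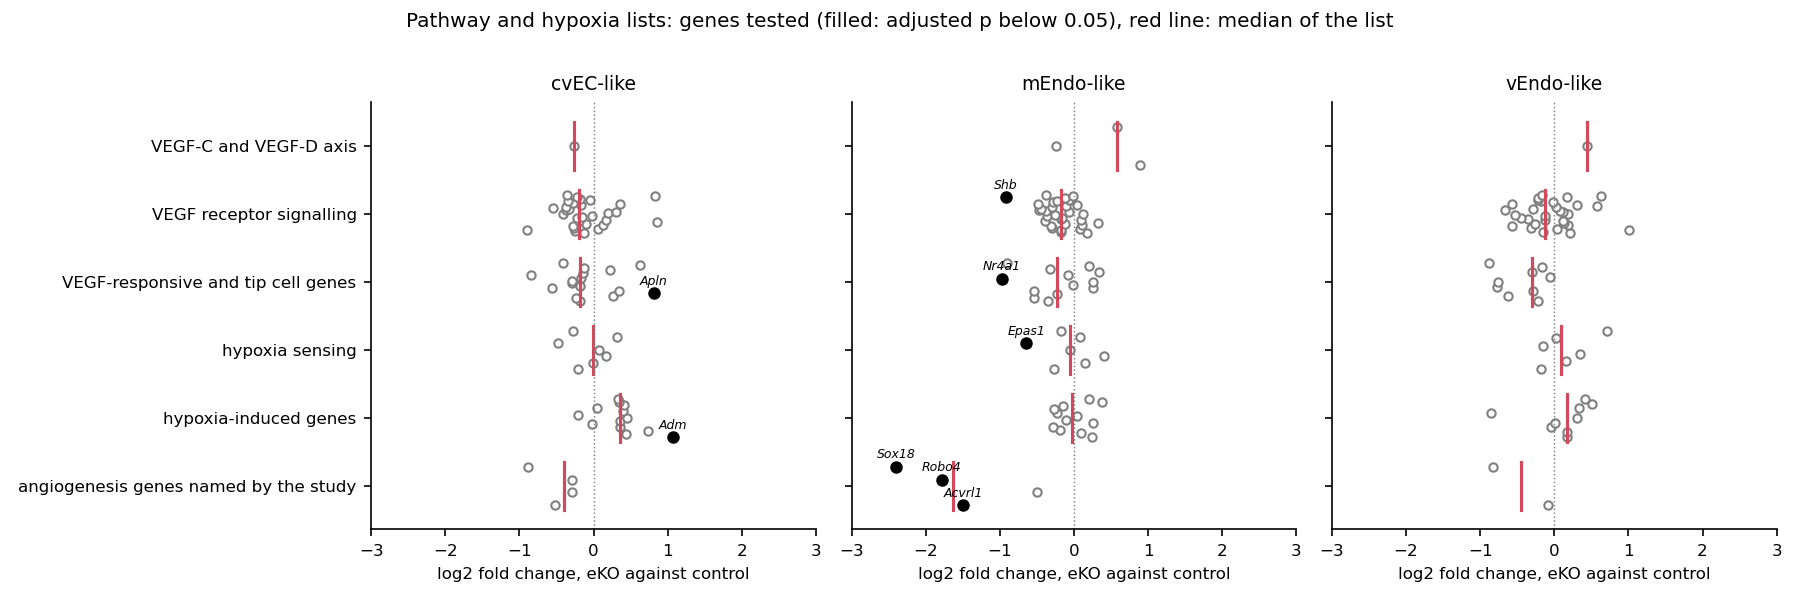
Log2 fold change of the genes of 6 lists (x axis, *Ets1* eKO against control) in the 3 endothelial classes; each point is a gene tested, filled points passed an adjusted p of 0.05, and the red line is the median of the list. In cvEC-like cells the hypoxia-induced genes have a median of 0.36, with *Adm* the one that passed.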

How the data were processed

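Ventricles were measured by 10x 3′ single-cell RNA sequencing in 4 libraries, 2 per genotype. The values are raw UMI counts, made by the authors with Cell Ranger 7.1.0 against mm10 and deposited without normalization; whether intronic reads were counted is not given. The authors' later steps (Seurat 4.3.0, removal of ambient RNA and doublets) were not repeated. Genes and lists were chosen with earlier results of these data known, and class thresholds were set after the data had been seen.

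A cell was kept with 200 to 7000 detected genes and no more than 20% of its UMIs from mitochondrial, 35% from ribosomal and 2% from hemoglobin genes. With 1000 UMIs or more it was classed by its marker UMIs per 10000. Endothelial-like cells had at least 8 with 3 markers, cvEC-like at least 16, mEndo-like 12 and vEndo-like 8. Each class also had upper limits for markers of other classes, and 0 cells met the limits of several classes. The epicardial-like class had no upper limit for fibroblast markers. vEndo-like cells could hold mEndo markers below 16, and endothelial-like cells fibroblast markers below 40. Halved and doubled class thresholds changed the lower limits alone. No doublet caller was run, and barcodes shared between libraries (191 pairs) were kept. Sums of UMIs per class and library went into edgeR's quasi-likelihood test (version 4.0.16, with limma 3.58.1 and R 4.3.3) after filterByExpr and TMM scaling, with Benjamini-Hochberg adjustment and a threshold of 0.05. Class comparisons carried a library term, and differences of effects used class by genotype terms. Comparisons of genotypes for *Ets1* and the VEGF genes, and their counts of genes, were computed again with scaling by total count, DESeq2 1.42.0, a replicate block, no count filter, a stricter cell filter, halved and doubled class thresholds, leaving out the 3650 cells with the most UMIs, and leaving out each library. Class comparisons were not computed again with DESeq2, a replicate block or without the cells with the most UMIs. Differences of effects were computed again only with scaling by total count, halved and doubled class thresholds, and leaving out each library. Shares of cells had fewer alternatives. With 1 library left out its group holds 1, which is assumed to vary like the other group. Shares of cells were counted after thinning to 2000 UMIs. Python 3.11.15, numpy 2.4.6, scipy 1.17.1, pandas 2.3.3 and matplotlib 3.10.9 were used.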

Additional observations from a re-analysis of the deposited data

Results flagged for a closer look

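The effect of *Ets1* eKO differed between classes by the interaction test for 3 genes, and each of these calls was lost in at least 1 alternative. For *Kdr* the effect in mEndo-like minus that in cvEC-like cells was -0.54 on the log2 scale (lost without eKO 2), and the effect in vEndo-like minus that in mEndo-like cells was 0.85 (lost without eKO 1 and with doubled class thresholds). For *Vegfa* the effect in vEndo-like minus that in cvEC-like cells was -1.59, a call lost in 5 of its 7 alternatives. For *Pgf* the same difference was -1.46 (lost with doubled class thresholds). The cause of these differences was not tested.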

How the results depend on the processing

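With DESeq2 the number of genes past the threshold between genotypes went from 19 to 9 in vEndo-like, 0 to 30 in cardiomyocyte-like, 5 to 0 in epicardial-like and 3 to 123 in fibroblast-like cells. Total count scaling gave 1 gene in cardiomyocyte-like and 5 in fibroblast-like cells, 25 in place of 40 for a different effect in cvEC-like and vEndo-like cells, and 0.14 for *Nrp1* between cvEC-like and mEndo-like cells, past the threshold in the other direction. With no filter on low counts there were 345 (cvEC-like, 75 before), 998 (mEndo-like, 379 before), 131 (vEndo-like), 72 (epicardial-like) and 617 (fibroblast-like). A replicate block, pairing libraries by number, gave 247, 1007, 155, 47 and 52 in cvEC-like, mEndo-like, cardiomyocyte-like, epicardial-like and fibroblast-like cells, where the correlation of paired libraries lay between -0.09 and 0.01. Halved class thresholds gave 12 in vEndo-like cells. Doubled thresholds gave 3 in vEndo-like and 1 in epicardial-like cells, 3001 in place of 4810 between cvEC-like and vEndo-like cells, 96 in place of 2302 between arterial-like and venous-like cells, and 325 (197 before) and 14 (40 before) for different effects of cvEC-like against mEndo-like and vEndo-like cells. Without the cells with the most UMIs there were 44 in cvEC-like, 1 in cardiomyocyte-like and 0 in epicardial-like cells. Leaving out 1 library gave 101 to 603 genes in cvEC-like, 358 to 895 in mEndo-like, 27 to 129 in vEndo-like, 5 to 2751 in cardiomyocyte-like, 26 to 82 in epicardial-like and 0 to 367 in fibroblast-like cells, and 138 to 398, 53 to 119 and 60 to 167 for different effects (cvEC-like and mEndo-like, cvEC-like and vEndo-like, mEndo-like and vEndo-like). Of 671 alternative values for the effect of *Ets1* eKO on single genes, most of which had not passed to begin with, 649 stayed on the same side of the threshold, 4 lost the call, 17 gained it, and 34 changed sign. Of 224 for differences of effects, 9 lost and 3 gained the call and 28 changed sign. Of 730 between classes, 25 lost and 11 gained it and 26 changed sign. For shares of cells 135 of 240 moved and 67 changed sign. The cause of these moves was not tested.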
